A study of Mus musculus with 30 samples.

Results

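The dynein arm genes of motile cilia are described here: 38 genes chosen by symbol for their known role, of 53715 genes counted in each table. The choice was made with earlier results of these data known, so shares of all genes given beside the members are description only. All 38 were found, Heatr2 under its newer name Dnaaf5. By role they are 5 outer arm heavy chains, 4 outer arm intermediate and light chains, 10 inner arm heavy chains, 3 inner arm intermediate and light chains, 4 docking proteins, 2 proteins of the axonemal ruler and 10 cytoplasmic assembly factors. RNA carrying a poly(A) tail was sequenced as single reads from individual embryonic mouse lungs and tracheas, with and without conditional deletion of both alleles of Myocd, a cofactor of serum response factor that drives smooth muscle genes. The E18.5 trachea was sampled from 6 mutants and 4 controls, the right lobes of the E18.5 lung from 6 mutants and 4 controls, and the lobes of both sides of the E13.5 lung from 5 mutants and 5 controls. Mutants carried Tbx4rtTAi/+ and tetOcrei/+ with MyocdF/F. Controls carried both transgenes with MyocdF/+, so they too had a floxed allele and Cre; the exception was E13.5 control replicate 1, which was MyocdF/F with neither transgene. The transactivator is driven from Tbx4, a gene of lung mesenchyme, and not of the airway epithelium whose multiciliated cells make motile cilia. Which exons are deleted, and which inducer was given, is not in the labels. Myocd reads therefore do not check the genotype: they averaged 7.23 ± 1.88 CPM (counts scaled to library size) in mutant and 9.26 ± 2.52 CPM in control lungs at E18.5, and 5.63 ± 1.998 CPM in mutant and 4.77 ± 2.95 CPM in control tracheas (SD, n = 6 and 4). At E13.5 they averaged 10.6 ± 3.2 CPM in mutants and 13.03 ± 3.997 CPM in controls (SD, n = 5 each).

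Dynein arms are the motors of the ciliary axoneme. Outer arms set beat frequency and inner arms shape the bend; both are rows of heavy chains, which hydrolyse ATP, with intermediate and light chains that anchor and regulate them. Arms are assembled in the cytoplasm with the help of dedicated factors, carried into the cilium, and attached to docking complexes and to a ruler that sets their spacing. In the airway these genes are switched on as cells become multiciliated, under Foxj1 and RFX factors, and loss of many of them in people causes primary ciliary dyskinesia.

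Promoters were set beside the expression data because RFX factors bind a motif called the X-box. RefSeq promoters (GRCm38.p6) of 300 bases, 250 before and 50 after the start, were found for 31 of the 38 genes. The letters GTTGCC, 1 arm of an X-box, were present on either strand in 11 of these 31 promoters (35.5%), against 14.1% of all 27025 promoters of that length. Dnah7a, Dnah7b and Dnah7c, the similar copies described below, are counted separately among the 11. The whole inverted repeat, GTNNCC followed after 2 bases by GGNNAC, was present in 4 (12.9%), against 2.16% of all promoters. The searches overlap, since GTTGCC can be an arm of the repeat. The forkhead core TGTTTAC was present in 1 of the 31 (3.23%), the promoter of Dnah17, against 4.05% of all promoters. A match describes letters only. The stretches of 80 bases that run up to the start are shown for 4 genes whose match lies close to it, with the match in capitals: Dnaic2 (chr11:114727339-114727418, plus strand) and Dnah10 (chr5:124725005-124725084, plus strand) hold the arm, in Dnaic2 as GGCAAC from the other strand, and Ccdc151 (chr9:22002635-22002714, minus strand) and Heatr2 (chr5:139150155-139150234, plus strand) hold the repeat.
Dnaic2: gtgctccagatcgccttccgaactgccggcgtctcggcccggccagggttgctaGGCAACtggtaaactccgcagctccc
Dnah10: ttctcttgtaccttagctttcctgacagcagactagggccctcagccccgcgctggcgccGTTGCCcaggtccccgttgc
Ccdc151: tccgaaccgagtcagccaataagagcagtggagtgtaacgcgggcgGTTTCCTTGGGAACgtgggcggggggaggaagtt
Heatr2: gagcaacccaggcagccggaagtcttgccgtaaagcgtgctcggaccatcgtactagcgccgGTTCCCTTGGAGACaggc

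The 3 Dnah7 copies, which code for an inner arm heavy chain and lie on chromosome 1, limit what can be read from their counts. Over the coding exons compared, Dnah7a was 97.1% identical to Dnah7b and 96.9% identical to Dnah7c, and Dnah7b was 97.2% identical to Dnah7c. Reads that map to several places were not counted, and 26.6% of the 75-base windows of Dnah7a, 21% of those of Dnah7b and 33.2% of those of Dnah7c also occur in other genes, among them the other copies. A coding exon of 109 bases shows how alike the copies are. It was taken because all 3 copies differ within it, and no 75-base window inside it is the same between copies. The 7 positions that differ among the copies are in capitals: Dnah7a (chr1:53686499-53686607, minus strand), Dnah7b (chr1:46083705-46083813, plus strand) and Dnah7c (chr1:46455755-46455863, plus strand), all GRCm38.
Dnah7a: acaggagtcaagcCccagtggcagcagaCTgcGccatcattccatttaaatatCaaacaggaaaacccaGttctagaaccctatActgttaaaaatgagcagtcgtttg
Dnah7b: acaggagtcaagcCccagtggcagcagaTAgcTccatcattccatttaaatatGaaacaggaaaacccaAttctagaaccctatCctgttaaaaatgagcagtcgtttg
Dnah7c: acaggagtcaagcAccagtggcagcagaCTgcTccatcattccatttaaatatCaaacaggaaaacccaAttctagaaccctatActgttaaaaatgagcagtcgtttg
Values of these 3 genes are therefore uncertain. The same holds where a neighbouring gene overlaps, since strand was not recorded: 66.3% of the windows of Dnaaf2, 18.6% of Dnaaf1 (with Taf1c), 13% of Ccdc39 (with Ttc14), 8.72% of Dnah3 (with Lyrm1) and 8.54% of Heatr2 are shared with another gene. Dyx1c1 and Pih1d3, both assembly factors, had 0 counts in all 30 libraries. For Dyx1c1, 89.3% of windows are shared with other annotated genes, so its 0 is not a measure of its level; for Pih1d3, known in mice from the testis, no window is shared, and a count of 0 allows up to 3 counts per library.

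Total counts ran from 11.7 to 30.5 M per library in the trachea, 19.9 to 32.8 M in the E18.5 lung and 17.4 to 28.5 M in the E13.5 lung. Among tracheas, control replicate 2 had the fewest counts (11.7 M) and mutant replicate 4 the next fewest (12.4 M). Genes detected were 16530 in that control and 22138 to 25623 in the other controls. In mutant tracheas they ran from 20198, in replicate 4, to 26167. Ribosomal RNA took 0.758 to 14.5% of counts in mutant tracheas and 0.812 to 2.65% in control tracheas. In the E18.5 lung it took 0.0815 to 0.126% in mutants and 0.0648 to 0.0870% in controls, and genes detected ran from 20379 to 22769 in mutants and 22666 to 23982 in controls. The part of these values in the lung results below was not tested beyond the fit with ribosomal RNA as a covariate. Tissue markers went with the labels. The 6 cartilage genes summed to 2538 to 12325 CPM over all tracheas and at most 27.4 CPM over all E18.5 lungs, whereas the 6 alveolar type 2 genes summed to at least 12101 CPM in E18.5 lungs and at most 1063 CPM in tracheas. Thyroid genes, from an organ beside the trachea, varied from 5.64 to 629.7 CPM in sum among tracheas.

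In the E18.5 lung, dynein arm RNA was lower in mutants. Summed over the members, it came to 389 ± 30 CPM in mutants and 579 ± 60 CPM in controls (SD, n = 6 and 4). The highest of the 6 mutants had 424 CPM and the lowest of the 4 controls 501 CPM, so the groups did not overlap. Of the 36 members with enough counts to test, 8 fell and 0 rose at an adjusted p under 0.05 with edgeR (0.55% of all 17467 genes tested fell and 0.0344% rose). They were the outer arm heavy chains Dnah5 and Dnah9, the outer arm intermediate chain Dnaic2, the inner arm chains Dnah2, Dnah3 and Wdr78, the ruler protein Ccdc40 and the assembly factor Zmynd10. They lie, on GRCm38, at chr15:28203752-28472052 (Dnah5), chr11:65831282-66168551 (Dnah9), chr11:114727408-114757889 (Dnaic2), chr11:69420809-69549110 (Dnah2), chr7:119922671-120095280 (Dnah3), chr4:103038065-103114555 (Wdr78), chr11:119228572-119265236 (Ccdc40) and chr9:107547298-107551319 (Zmynd10). The median log2 fold change over the 36 was -0.61, against 0.00 over all genes tested, and 33 of the 36 lay below 0. In 12 of the 36 every mutant was below every control (1.83% of all genes). In whole tissue, fewer multiciliated cells and less RNA per cell cannot be told apart.

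**Figure D1:**
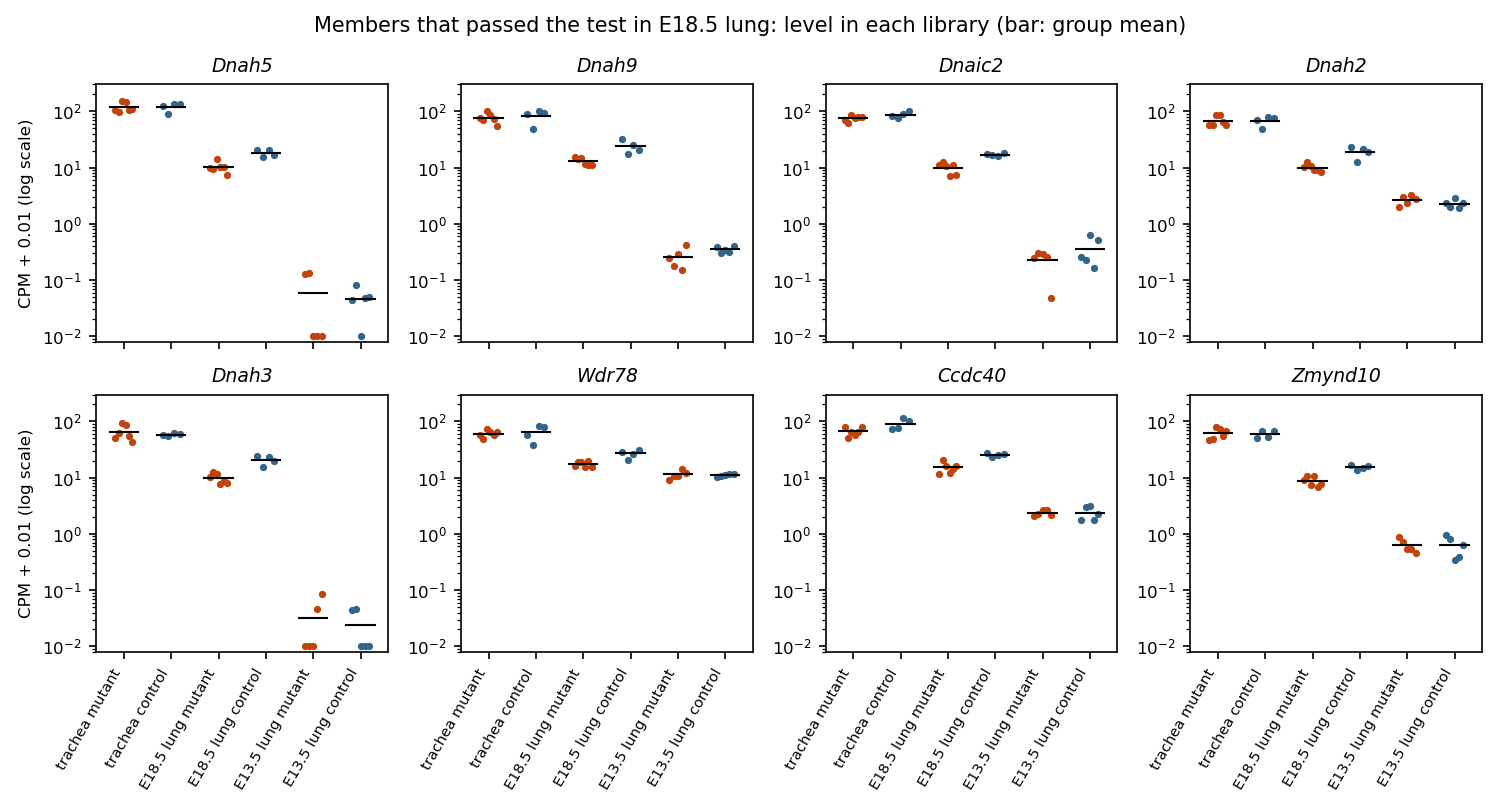
Level of the 8 members that fell in the E18.5 lung, as CPM + 0.01 on a log axis, in each library of the 6 groups; points are libraries, bars are group means, orange-red is mutant and blue is control. In the E18.5 lung the mutant points sit below the control points for each gene except Dnah2, where 1 mutant at 12.4 CPM lies just above 1 control at 12.3 CPM; in the trachea and in the E13.5 lung the groups overlap.

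Among the outer arm heavy chains, Dnah5, whose loss stops the outer arm from forming, had a lowest, median and highest level of 7.37, 10.1 and 14.03 CPM in 6 mutant lungs, against 20.6, 15.6, 20.2 and 16.4 CPM in 4 control lungs. All mutants were below all controls, and the log2 fold change was -0.82 (SE 0.15, adjusted p = 0.0139). Dnah9, the heavy chain paired with Dnah5 in the outer part of the cilium, had 10.9, 13.02 and 15.6 CPM in mutants, against 32.2, 17.5, 25.3 and 20.3 CPM in controls. Again no mutant reached a control (log2 fold change -0.86, SE 0.16, adjusted p = 0.0151). Dnah9 lies 0.561 Mb from the end of Myocd on chromosome 11, so an effect of the DNA that travels with the floxed allele and one of the deletion cannot be told apart for this gene. The same holds for Dnah2, described below, which lies 4.15 Mb from Myocd on that chromosome. Dnah11, the heavy chain of the base of the cilium, did not pass: it had 9.005, 11.9 and 15.7 CPM in mutants and 16.7, 12.5, 17.6 and 18.7 CPM in controls (-0.44, adjusted p = 0.296). The heavy chains known mainly from sperm tails did not pass either. Dnah17 had a log2 fold change of 0.06 (95% interval -0.30 to 0.42), and Dnah8 one of -0.24, with overlapping groups in both.

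The outer arm intermediate chains form the base of the motor. Dnaic2 had 6.99, 10.9 and 12.6 CPM as lowest, median and highest of the mutants, against 17.5, 16.6, 16.2 and 18.02 CPM in controls; the groups did not overlap and the log2 fold change was -0.77 (SE 0.15, adjusted p = 0.0256). Its partner Dnaic1 had 3.34, 4.35 and 6.56 CPM in mutants and 6.86, 4.98, 5.01 and 7.40 CPM in controls, which overlapped (-0.42, adjusted p = 0.578). Neither light chain passed: Dnal4 had a log2 fold change of 0.04 (95% interval -0.13 to 0.21) and Dnal1, which binds a heavy chain, one of -0.14.

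Inner arm heavy chains had the lowest median of any role, -0.92 over 10 genes, of which 2 passed. Dnah3, a heavy chain of a single-headed inner arm, had 7.84, 9.48 and 12.6 CPM in mutants, against 23.9, 15.8, 23.4 and 19.97 CPM in controls. It was 2.11-fold lower (log2 fold change -1.08, SE 0.15, adjusted p = 0.00326), with no overlap. Dnah2, a heavy chain of the inner arm that has a pair of heads, had 8.50, 9.70 and 12.4 CPM in mutants and 23.1, 12.3, 21.8 and 18.6 CPM in controls; control replicate 2 was the low one and alone met the mutant range (-0.91, SE 0.16, adjusted p = 0.00994). Dnah6 and Dnah12 also had non-overlapping groups without passing the test: Dnah6 averaged 18.2 ± 4.5 CPM in mutants and 37.1 ± 8.7 CPM in controls (adjusted p = 0.0569), and Dnah12 averaged 11.1 ± 4.6 CPM in mutants and 22.8 ± 2.7 CPM in controls (adjusted p = 0.194; SD, n = 6 and 4). Dnah10, which shares its arm with Dnah2, averaged 20.4 ± 5.0 CPM in mutants and 39.0 ± 11.1 CPM in controls (-0.93, adjusted p = 0.0589; SD, n = 6 and 4). Dnah7a had the most negative estimate, -1.43 with a 95% interval of -2.54 to -0.31, on 151 counts in 6 mutants and 308 in 4 controls (adjusted p = 0.384). Dnah14, with 165 counts in 6 mutants and 104 in 4 controls, gave 0.20 with an interval of -0.82 to 1.23.

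The chains that hold the inner arms together had a median of -0.71, all 3 below 0. Wdr78, an intermediate chain of the same arm as Dnah2, had 15.6, 17.5 and 19.6 CPM in mutants and 29.1, 20.7, 26.9 and 31.2 CPM in controls; the ranges stayed apart (-0.62, SE 0.12, adjusted p = 0.0174). Wdr63, its partner chain, had 5.52, 7.59 and 12.8 CPM in mutants and 21.4, 8.23, 25.04 and 15.6 CPM in controls. Control replicate 2 fell inside the mutant range there, and the gene did not pass (-1.06, adjusted p = 0.208). The inner arm light chain Dnali1 had 8.24, 11.7 and 18.3 CPM in mutants, all below the 23.7, 19.4, 20.2 and 20.1 CPM of controls, at an adjusted p of 0.0734 (-0.71).

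Docking proteins, which fix the outer arm to the microtubule, were all below 0 and none of the 4 passed. Ccdc151 averaged 5.25 ± 1.18 CPM in mutants and 8.75 ± 1.04 CPM in controls (log2 fold change -0.74, adjusted p = 0.0758), and Ccdc114 averaged 14.3 ± 2.1 CPM in mutants and 19.03 ± 1.97 CPM in controls (-0.40, adjusted p = 0.227; SD, n = 6 and 4). Armc4 and Ttc25 lay between them at -0.58 and -0.62. Of the ruler pair, without which inner arms and spokes lose their register, Ccdc40 passed: it had 11.4, 15.2 and 21.0 CPM in mutants, against 27.9, 23.03, 25.1 and 26.6 CPM in controls (-0.75, SE 0.14, adjusted p = 0.015). Ccdc39 had 8.66, 12.2 and 15.3 CPM in mutants, all below the 19.1, 19.99, 16.4 and 20.6 CPM of controls (-0.61, adjusted p = 0.0643).

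Assembly factors had a median of -0.31 over the 8 tested. Zmynd10, which helps fold heavy chains, was the one that passed: 6.75, 8.47 and 10.9 CPM in mutants, against 16.5, 13.9, 14.8 and 16.4 CPM in controls, with no overlap (-0.81, SE 0.15, adjusted p = 0.0139). Lrrc6, its binding partner, averaged 2.997 ± 1.190 CPM in mutants and 5.59 ± 0.89 CPM in controls (-0.89, adjusted p = 0.188). Dnaaf1 had 3.12 ± 0.73 CPM in mutants and 5.25 ± 0.98 CPM in controls (-0.75, adjusted p = 0.188; SD, n = 6 and 4). Heatr2 had 27.7 ± 2.8 CPM in mutants and 30.6 ± 2.6 CPM in controls (-0.14, 95% interval -0.34 to 0.06). Dnaaf2, Dnaaf3, Ccdc103 and Spag1 were not called, with estimates of -0.31, -0.32, -0.16 and -0.22.

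Long and short members lay close together: the median log2 fold change was -0.65 over the 16 with at least 10 kb of exon and -0.61 over the 20 shorter ones, against -0.08 and 0.01 over all genes of those lengths. The calls did depend on single libraries. Leaving out 1 library at a time gave between 1 and 11 calls: 1 without control replicate 1, 2 without control replicate 3, 4 without control replicate 4, 5 without mutant replicate 4 and 11 without control replicate 2. Calls over all genes moved too: from these fits, in the same order, 24, 44, 40, 56 and 127 genes were called lower, against 96 with all libraries. Dnah3 was the only member called in all 10 of these fits. With the library's share of ribosomal RNA as a covariate, 0 members were called by edgeR, 4 genes fell among all tested, and the members' median was -0.46 (Dnah3: -0.84, adjusted p = 0.471). DESeq2 called 14 members lower and 0 higher (1.33% of all genes were lower and 0.283% higher), adding Dnah6, Dnah10, Dnali1, Ccdc151, Ttc25 and Ccdc39.

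Genes of other parts of the cilium fell in the same lungs. Of 20 genes of radial spokes, nexin links and the central pair, 7 fell and 0 rose, with a median of -0.78; Hydin, of the central pair, averaged 11.1 ± 2.1 CPM in mutants and 22.8 ± 5.6 CPM in controls (-1.03, adjusted p = 0.00764), and the spoke head gene Rsph4a averaged 11.5 ± 1.8 CPM in mutants and 19.7 ± 1.7 CPM in controls (-0.78, adjusted p = 0.00764; SD, n = 6 and 4). Of 12 genes of doublet inner proteins and associated factors, 3 fell (median -0.64), among them Tekt1 and Cfap126. Of 10 regulators of multiciliated cells, 2 fell (median -0.53). Foxj1, the master regulator, had 34.1 to 48.8 CPM in mutants, against 67.7, 59.01, 53.3 and 62.03 CPM in controls (-0.59, SE 0.10, adjusted p = 0.00876), and Myb averaged 10.3 ± 2.0 CPM in mutants and 16.7 ± 1.1 CPM in controls. None of 11 other arm-related proteins passed (median -0.32, and the chaperone Ruvbl2, which every cell uses, was at 0.03). Of those 11, 8 lay below 0 and 3 above, and 5 had an unadjusted p under 0.05 with edgeR (1644 of all 17467 genes did).

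No call was made among dyneins and transport genes outside the arms. None of the 9 cytoplasmic dynein-1 genes, which serve transport in all cells, passed (median 0.06; Dync1h1 at -0.22, adjusted p = 0.683), and none of the 21 genes of intraflagellar transport and dynein-2, used by primary cilia as well, passed (median -0.11; Ift172 at -0.17). Of those 21, 18 lay below 0 and 6 had an unadjusted p under 0.05. Markers of secretory cells, the other main cell type of the conducting airway, were also lower: 2 of 5 tested fell (median -0.45), the 6 listed genes summed to 743 to 1055 CPM in mutants and 1303 to 1543 CPM in controls, and Bpifa1 had 1 count in mutants and 0 in controls. Scgb1a1 averaged 365 ± 51 CPM in mutants and 685 ± 50 CPM in controls (-0.90, adjusted p = 0.000226). General epithelial markers (0 of 6 called, median -0.06), basal cell markers (0 of 4, median 0.06), alveolar type 2 markers (0 of 6, median -0.09) and alveolar type 1 markers (0 of 6, median -0.02) held no called gene. Nor did those of neuroendocrine cells, cartilage, oesophagus, thyroid or the sperm line. The 3 neuroendocrine genes tested all lay below 0 (median -0.31), and 1 had an unadjusted p under 0.05. In 1 of them every mutant was below every control (1.83% of all genes). Of the oesophagus list only Krt4 and Krt13 could be tested; both were estimated higher (median 1.78, unadjusted p under 0.05), on 132 and 164 counts over 6 mutants and 39 and 26 counts over 4 controls, and Dsg3 was at 0 in both groups. Of 6 smooth muscle markers 1 fell, Myh11 (-0.37, adjusted p = 0.0426). All 6 estimates were below 0, with a median of -0.45 and 4 at an unadjusted p under 0.05, and their sum was 247 to 273 CPM in mutants and 281 to 323 CPM in controls. Whether a change in airway cell makeup has a part in the arm gene result was not tested.

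**Figure D2:**
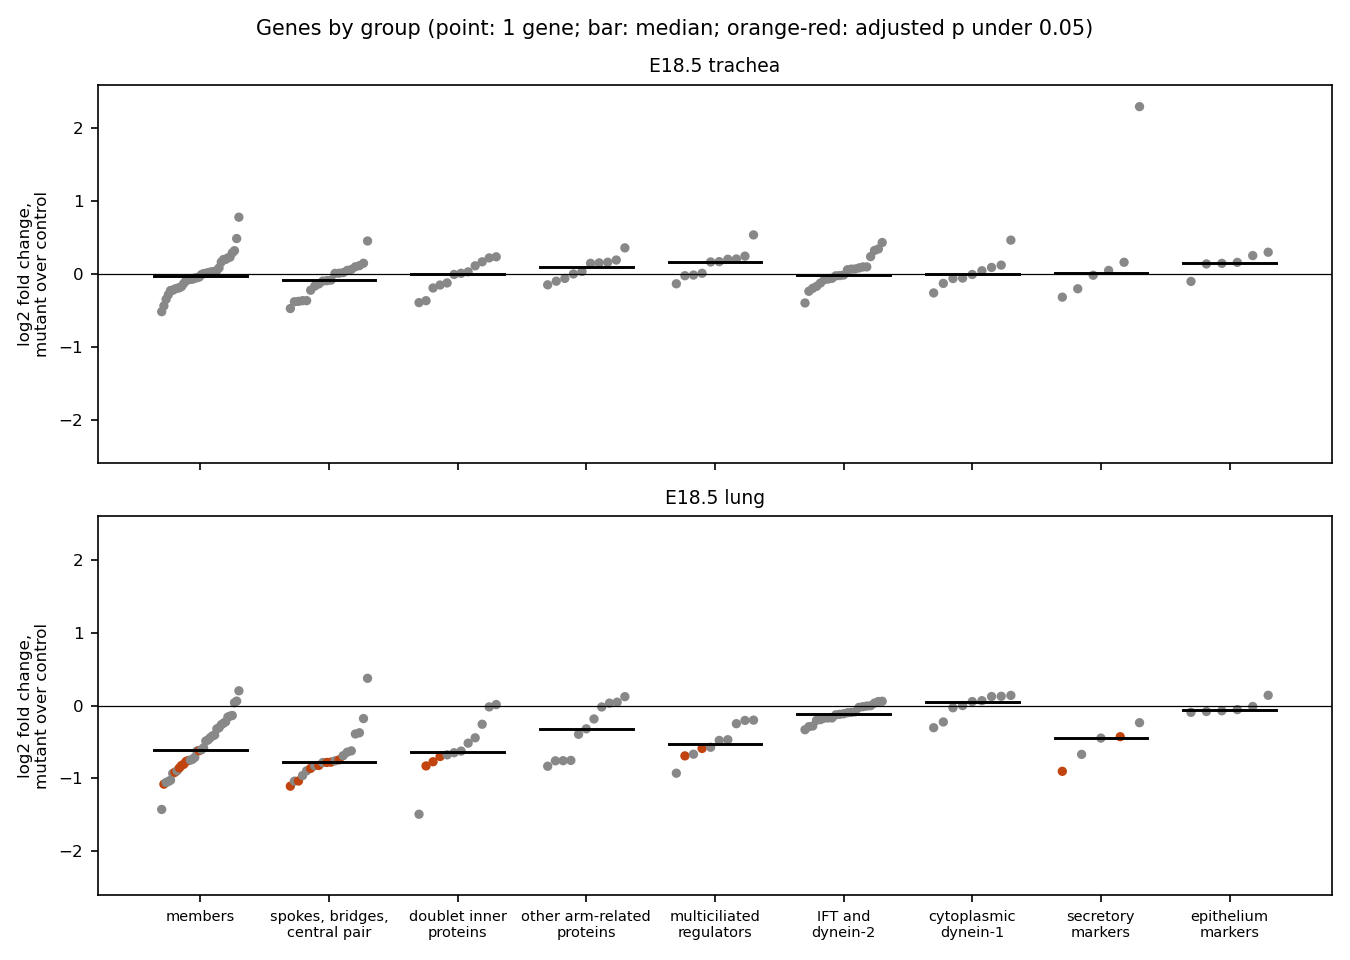
Log2 fold change of mutant over control for each tested gene of 9 groups, in E18.5 trachea (above) and E18.5 lung (below); points are genes, bars are group medians, orange-red marks an adjusted p under 0.05. In lung the ciliary groups lie mostly below 0, with medians of -0.61 for the arm genes and -0.78 for spokes, bridges and central pair, whereas dynein-1 genes lie around 0 with a median of 0.06 and intraflagellar transport genes mostly just below it with a median of -0.11; in trachea the 9 medians lie between -0.09 and 0.17.

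In the trachea, where most of the same genes were more abundant than in the lung, no difference was detected. Summed over the members, mutants had 1705 ± 238 CPM and controls 1826 ± 333 CPM (SD, n = 6 and 4), with overlapping ranges of 1437 to 2097 and 1402 to 2115 CPM. None of 36 members passed with edgeR or with DESeq2 (0.0655% of all 18315 genes fell and 0.00546% rose with edgeR, 0.34% and 0.115% with DESeq2), and 4 had an unadjusted p under 0.05. The median log2 fold change was -0.03, with 19 genes below 0 and 17 above. Dnah5 had a lowest, median and highest level of 98.2, 108 and 152 CPM in mutants, against 125, 90.2, 135 and 135 CPM in controls, and the groups overlapped at a log2 fold change of 0.00 (95% interval -0.31 to 0.32). Dnah3 had 43.4, 59.4 and 94.3 CPM in mutants and 56.7, 54.4, 63.1 and 58.97 CPM in controls (0.20, 95% interval -0.21 to 0.61). Its mutants lay on both sides of the controls. Zmynd10 had 46.6, 61.2 and 80.5 CPM in mutants and 49.8, 68.1, 52.8 and 67.02 CPM in controls (0.08, interval -0.28 to 0.44). Dnah9 had 55.99, 74.5 and 102 CPM in mutants and 88.7, 47.8, 99.8 and 93.4 CPM in controls (-0.07, interval -0.47 to 0.33), with control replicate 2 lowest.

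The other chains called in lung overlapped too. Dnah2 had 56.3, 61.3 and 87.2 CPM in mutant tracheas and 69.4, 49.4, 80.8 and 74.7 CPM in controls (0.01), and Dnaic2 had 63.3, 78.8 and 85.1 CPM in mutants and 81.1, 77.1, 90.2 and 100.01 CPM in controls (-0.17). The light chain Dnali1, at -0.21, averaged 99.4 ± 8.1 CPM in mutants and 117 ± 14 CPM in controls (SD, n = 6 and 4). Foxj1 averaged 219 ± 44 CPM in mutants and 225 ± 18 CPM in controls (-0.02), and no regulator, spoke or doublet gene was called. Cartilage genes summed to 2538 to 10438 CPM in mutants and 7977 to 12325 CPM in controls, and smooth muscle genes to 148 to 365 CPM in mutants and 691 to 1058 CPM in controls. The part of these tissues in the levels of the arm genes was not tested.

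The 4 tracheal members with an unadjusted p under 0.05 were Ccdc40, Ccdc114, Ttc25 and Dnah8, named after their values were seen. Ccdc40 had 51.4, 65.8 and 79.7 CPM in mutants and 74.4, 76.5, 114 and 102 CPM in controls (-0.44, adjusted p = 0.635), with groups that overlapped. Ccdc114 averaged 38.8 ± 5.5 CPM in mutants and 50.1 ± 6.7 CPM in controls (-0.35, adjusted p = 0.667), and Ttc25 averaged 31.8 ± 5.3 CPM in mutants and 46.3 ± 8.5 CPM in controls (-0.52, adjusted p = 0.510). Dnah8 was estimated higher, at 14.2 ± 3.6 CPM in mutants and 8.36 ± 3.004 CPM in controls (0.78, adjusted p = 0.643; SD, n = 6 and 4). Spread was larger in the trachea, with a biological coefficient of variation of 0.370 against 0.184 in the E18.5 lung. The count stayed 0 without the mutants over 5% ribosomal RNA and without the libraries under 15 M counts. Both sets were chosen after seeing the data, and those fits moved the members' median to -0.16 and -0.20. Leaving out 1 library at a time gave medians of -0.19 to 0.05, the lowest without control replicate 2.

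**Figure D3:**
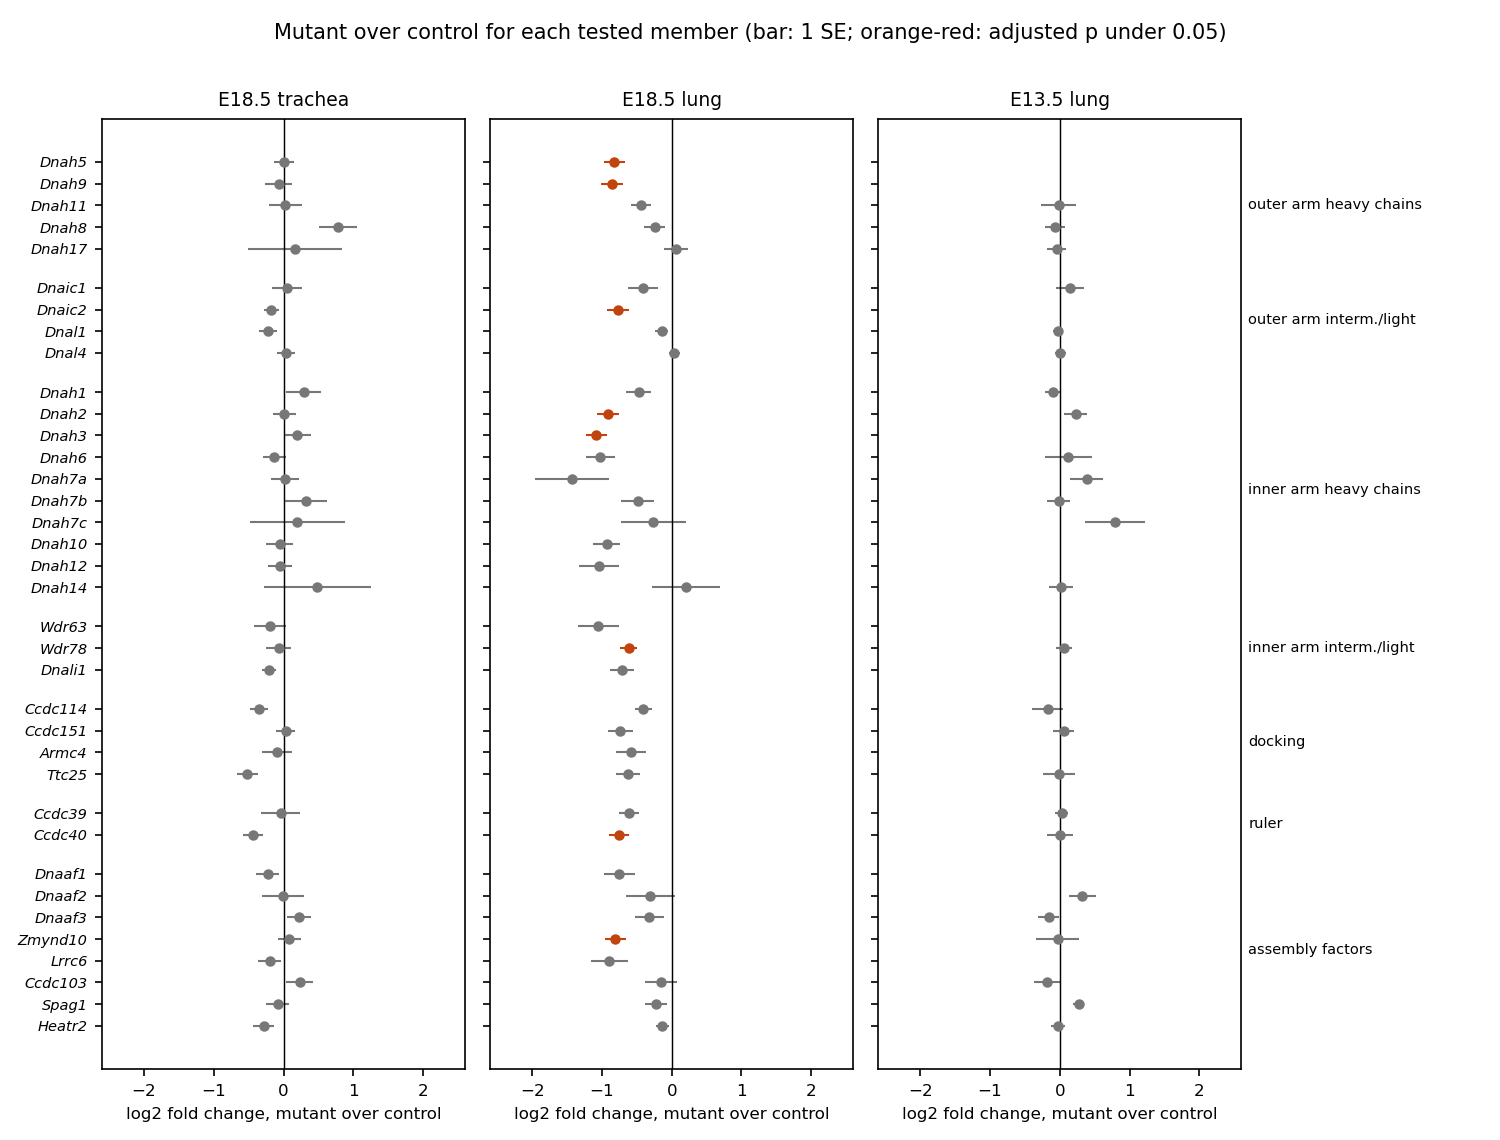
Log2 fold change of mutant over control for each tested member, grouped by role, in E18.5 trachea, E18.5 lung and E13.5 lung; bars are 1 SE and orange-red marks an adjusted p under 0.05. In the E18.5 lung 33 of 36 members lie left of 0 and 8 are marked; in trachea and E13.5 lung they scatter around 0 and none is marked.

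The difference between tissues was tested as trachea effect minus lung effect over the 20 E18.5 libraries. None of 36 members passed with edgeR (of all 19859 genes 0.0201% were lower and 0.00504% higher), although 34 of 36 differences were above 0, 20 had an unadjusted p under 0.05, and the median was 0.58. Of all 19859 genes, 11733 differences were above 0, 1374 had an unadjusted p under 0.05, and the median was 0.07. DESeq2 called 1, Dnah3 (0.0792% of all genes lower and 0.182% higher). In edgeR Dnah3 differed by 1.32 (SE 0.26, adjusted p = 0.104), from estimates of 0.20 in trachea and -1.08 in lung, and it passed when lung control replicate 2 (adjusted p = 0.0410) or trachea mutant replicate 6 (adjusted p = 0.0283) was left out. Next were Dnah2 (0.96), Zmynd10 (0.93) and Dnah5 (0.86), each at an adjusted p of 0.175. With edgeR over all 20 libraries, the mutant effect was not shown to differ between the tissues for any one member.

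At E13.5, before airway cells become multiciliated, arm RNA was low and no difference by genotype was detected. The summed level was 184 CPM in mutants and 183 CPM in controls, and 176 to 191 against 177 to 190 CPM by library. Dnal4, Heatr2 and Dnal1 held much of that sum. In mutants they had 35.6 to 44.1, 26.1 to 39.2 and 21.2 to 27.9 CPM. In controls they had 38.6 to 46.3, 34.6 to 35.9 and 24.1 to 27.0 CPM. Only 25 members had enough counts to test, and 0 passed with edgeR or DESeq2 (of all 16486 genes 0.188% fell and 0.0182% rose with edgeR, 0.25% and 0.103% with DESeq2). The median was 0.00, and 1 member had an unadjusted p under 0.05: Spag1, an assembly factor, with 9.31, 9.16, 8.46, 9.31 and 9.98 CPM in mutants, all above the 8.28, 7.71, 7.21, 7.99 and 7.21 CPM of controls (0.27, adjusted p = 0.689). In 0.279% of all genes every mutant was above every control. Dnah2 had 2.65 ± 0.50 CPM in mutants and 2.29 ± 0.37 CPM in controls (SD, n = 5 each), and Dnah3 had 3 counts in 5 mutants and 2 in 5 controls. Among other cilium genes, 1 of the 10 tested for doublet inner proteins was called higher in mutants. None of 12 genes of spokes, nexin links and central pair and none of 6 multiciliated regulators was called. Of 6 smooth muscle markers, 3 fell at this stage (median -1.41) and 1 fell in the trachea (median -1.94). All 6 estimates were below 0 in both.

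Tested as E18.5 effect minus E13.5 effect over the 20 lung libraries, 0 of 36 members passed with edgeR (0.0161% of all genes lower, 0.0107% higher), 11 had an unadjusted p under 0.05 and the median was -0.53. Of all 18639 genes, 1090 had an unadjusted p under 0.05, and the median was -0.01. Of the 36, 11 had too few counts at E13.5 to be tested there, so their differences rest on E18.5 and are not a comparison of stages. Over the 25 members tested at both stages, 21 differences were below 0, 10 had an unadjusted p under 0.05 and the median was -0.50. DESeq2 called 2, Dnah2 and Wdr78 (0.103% of all genes lower and 0.125% higher). Dnah2 differed by -1.15 (SE 0.24, adjusted p = 0.0887), from -0.91 at E18.5 and 0.23 at E13.5, and passed without E18.5 lung control replicate 2 (adjusted p = 0.0131). Wdr78 differed by -0.68 (adjusted p = 0.265). Of 12 doublet inner protein genes 1 was called lower in this difference, and none of 20 spoke, nexin link and central pair genes was called. Lobes differ with stage in this comparison: right at E18.5, both sides at E13.5.

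Control tissues differed in the level of arm RNA. At E18.5, 31 of 36 members were higher in trachea than in lung and 0 were lower (24.7% of all genes were higher and 27.7% lower), with a median log2 fold change of 1.86. Dnah5 led, with 125, 90.2, 135 and 135 CPM in trachea and 20.6, 15.6, 20.2 and 16.4 CPM in lung, 6.63-fold higher (2.73, SE 0.15, adjusted p = 5.36e-08). Dnaic2 was 5.08-fold, Dnali1 5.57-fold and Dnaaf1 5.78-fold higher. Differences were smaller for Dnal4 (0.64) and Heatr2 (0.77), which passed, and Dnal1 (0.16, adjusted p = 0.227), which did not.

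The 5 members that did not pass between tissues include the heavy chains of sperm tails. Dnah17 had 4.35, 0, 4.55 and 4.57 CPM in trachea, against 5.74, 10.3, 8.42 and 10.2 CPM in lung (-1.35, adjusted p = 0.124). All tracheas were below all lungs, and trachea control replicate 2 had no read. Without that library the gene was lower in trachea (-0.91, adjusted p = 0.00358). Dnah8 had 8.36 ± 3.004 CPM in trachea and 10.4 ± 1.0 CPM in lung (SD, n = 4 each; -0.31, adjusted p = 0.348). Dnah11, a ciliary heavy chain, was 23.9 ± 8.0 CPM in trachea and 16.4 ± 2.7 CPM in lung (0.54, adjusted p = 0.0864); it passed without trachea control replicate 2 (0.80, adjusted p = 0.000217) and with the replicate number as a block (0.48, adjusted p = 0.0336), whereas Dnah7c lost its call with the block. Dnah7c, counted among the 31, was called in 3 of 13 alternatives and in 1 of the 8 fits that left out a library (adjusted p up to 0.207). Dnah14 had 111 counts in 4 tracheas and 104 in 4 lungs (0.31, adjusted p = 0.782).

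Between stages, 31 of 36 members were higher in E18.5 than in E13.5 control lungs and 2 were lower (40.4% of all genes higher, 39.6% lower), with a median log2 fold change of 2.65. A gene needed reads in only 1 of the groups to be tested, so those absent at E13.5 had to differ. Dnah5 had 2131 counts in 4 lungs at E18.5 and 5 counts in 5 lungs at E13.5, Dnah3 had 2418 counts at E18.5 and 2 at E13.5, and Armc4 had 864 at E18.5 and 1 at E13.5. Others were already present: Dnah2 averaged 18.9 ± 4.8 CPM at E18.5 and 2.29 ± 0.37 CPM at E13.5 (3.10, adjusted p = 2.79e-09), Wdr78 averaged 26.96 ± 4.56 CPM at E18.5 and 10.99 ± 0.495 CPM at E13.5 (1.35), and Dnah1, an inner arm heavy chain, averaged 12.6 ± 1.9 CPM at E18.5 and 13.3 ± 2.0 CPM at E13.5 (-0.02, adjusted p = 0.879; SD, n = 4 and 5). The 2 that were lower at E18.5 were Dnal4, at 30.5 ± 2.6 CPM, against 40.98 ± 3.11 CPM at E13.5 (-0.37, adjusted p = 0.000957), and Dnaaf2, at 1.90 ± 0.29 CPM, against 5.81 ± 0.31 CPM at E13.5 (-1.55, adjusted p = 3.67e-07), most of whose sequence overlaps other genes.

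**Figure D4:**
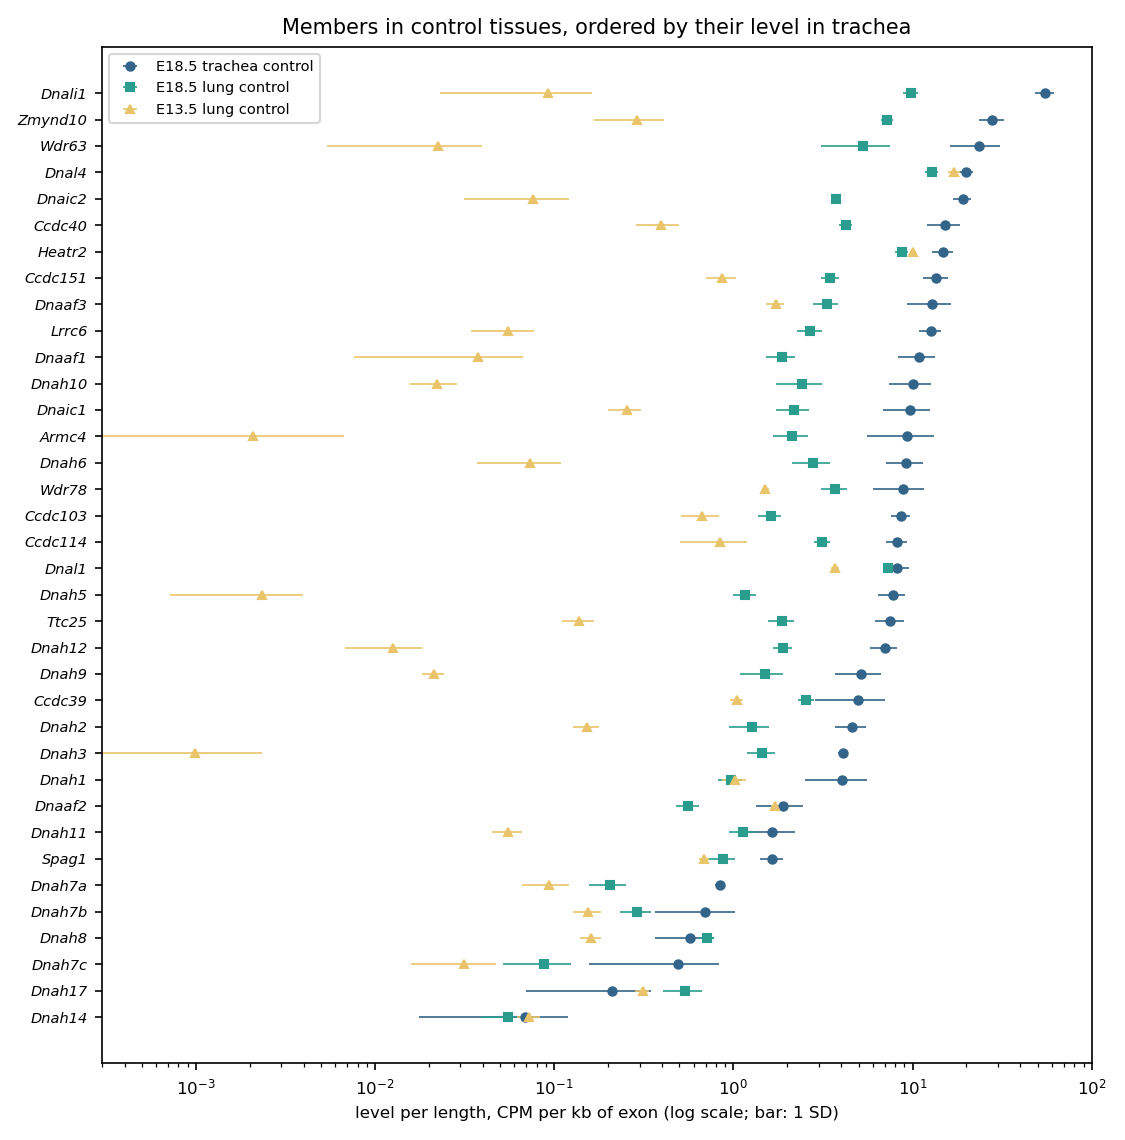
Level of 36 members in control tissues per length of exon (CPM per kb, log axis; mean and 1 SD, lower bars cut short where they would reach 0), ordered by the level in E18.5 trachea, with E18.5 trachea, E18.5 lung and E13.5 lung as separate symbols. Dnali1 leads in trachea at 54.7 CPM per kb and Dnal4 in both lung groups, while Dnah3, Armc4 and Dnah5 span the widest range between stages.

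Per kb of exon, the order of levels also differed between control tissues. In trachea Dnali1 stood first at 54.7 ± 6.7 CPM per kb, clear of Zmynd10 at 27.9 ± 4.5, and neighbours from Zmynd10 down to Dnah1 (4.06 ± 1.54) did not differ beyond their SD (n = 4). In the E18.5 lung Dnal4 led at 12.8 ± 1.1 CPM per kb, ahead of Dnali1 at 9.76 ± 0.92, Heatr2 at 8.70 ± 0.73, Dnal1 at 7.31 ± 0.31 and Zmynd10 at 7.23 ± 0.60. At E13.5 Dnal4 (17.1 ± 1.3), Heatr2 (10.03 ± 0.179) and Dnal1 (3.68 ± 0.19) stood clear of all others (n = 5). Among the outer arm heavy chains in trachea, Dnah5 had 7.76 ± 1.36, Dnah9 5.17 ± 1.47 and Dnah11 1.65 ± 0.55 CPM per kb. Dnah14 was the lowest gene with reads in both E18.5 tissues, at 0.0685 ± 0.0508 CPM per kb in trachea and 0.0555 ± 0.0166 CPM per kb in lung.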

How the data were processed

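The deposited files are raw counts of reads per gene. The submitters' processing notes name STAR (version not given in the sources used here) and the GRCm38 build; the authors counted reads with featureCounts 1.6.2 and GENCODE vM17 at default options, without strand, per the file headers; libraries were TruSeq V2, single reads of 75 bases, per the labels' protocols. Of 53715 IDs, 53620 had a symbol (GENCODE vM21). The members and the gene lists were chosen with earlier results of these data known. From the counts, edgeR 4.0.16 (R 4.3.3; TMM, filterByExpr, robust quasi-likelihood F test, two-sided, Benjamini-Hochberg over all genes tested, threshold 0.05) was fitted per comparison with no covariate. SE is the log2 fold change divided by the square root of F, and 95% intervals use the fit's degrees of freedom. CPM levels are on TMM-scaled library sizes over all 30 libraries. Named in full are members past the test, 10 chosen ciliary genes, and the lowest and highest of each role. Other members given with values, among them Dnah6, Dnah10 and Dnah12 in the E18.5 lung, fall outside this rule and were not set in advance. Of other lists, up to 2 called genes or the most abundant were named. DESeq2 1.42.0, RLE scaling, no filter, covariates, a replicate block and leaving out libraries were alternatives. The code was tested on simulated data. In control trachea against lung, same-numbered libraries deviated together (correlations 0.121 to 0.224 over 4 pairs), a pairing read from the data; labels do not tie organs to embryos. Libraries were separate organs, and no pair of a group agreed within sampling noise (lowest chi-square per degree of freedom 3.81). Counts limit precision of low genes.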

Additional observations from a re-analysis of the deposited data

Results flagged for a closer look

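Of 120 combinations of a named member and a group with 10 or more counts in at least 1 library, 7 held a library far from the rest of its group by Dixon's criterion, which chance meets in about 1 of 20 groups. In control tracheas 2 cases were replicate 2, the library with the fewest counts: Dnah11 had 12 CPM there and 27.2 to 28.3 CPM in the other controls, and Dnah17 had 0 CPM there and 4.35 to 4.57 CPM in the others. Among mutant tracheas, replicate 3 had 36.7 CPM of Dnah11, with 19.4 to 24.98 CPM in the others.

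In E13.5 lungs, Dnaic1 had 1.03 CPM in mutant replicate 4 and 0.66 to 0.756 CPM in the other mutants. Dnal4 had 46.3 CPM in control replicate 5 and 38.6 to 40.6 CPM in the other controls. Ccdc114 had 8.75 CPM in control replicate 2 and 3.37 to 4.83 CPM in the others, and Ccdc151 had 1.48 CPM in control replicate 4 and 2.25 to 2.52 CPM in the others. No cause was tested for these libraries.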

How the results depend on the processing

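The 8 calls in the E18.5 lung, all lower, became 14 with DESeq2, 4 with the replicate block (Dnah3, Dnah5, Dnah9 and Dnah6; Ccdc40, Dnah2, Dnaic2, Wdr78 and Zmynd10 were lost) and 0 with the ribosomal RNA covariate, which ran higher in mutants; leaving out 1 library gave 1 to 11. Same-numbered lungs correlated at 0.0388 to 0.252 and 3 of 4 pairs matched best, a hint of pairing from the data that the labels do not state. RLE scaling gave 8, the length slope covariate 10 and no filter 12. Calls over all genes moved too, from 96 of 17467 lower in the main fit. They were 95 with RLE scaling, 123 with the length slope covariate, 64 with the block and 172 of 30420 with no filter. The members' median stayed between -0.68 and -0.46 in all of these fits; the cause of the losses was not tested. The trachea and E13.5 lung counts stayed at 0 in all alternatives, the block included. In the E13.5 lung the block called 0 of all 16486 genes, so its 0 for the members says nothing about them. In the trachea the length slope and ribosomal RNA covariates each left 3 genes lower and 0 higher among all tested. With the block, 27 genes were lower and 1 higher there. The members' median in the trachea was -0.03 in the main fit. It moved to -0.18 with the length slope covariate, -0.13 with the ribosomal RNA covariate and 0.05 with the block. The tissue difference gave 1 with DESeq2 and 0 to 1 leaving out a library. The stage difference gave 2 with DESeq2 and 0 to 1 leaving out a library. Both stayed 0 with the block. There the block joined mutant and control libraries of the same number within a tissue or stage. It did not join lung with trachea, so a pairing of organs was not allowed for in the tissue difference. Control trachea against lung gave 31 with and without the block and 30 to 34 leaving out a library; the stage comparison gave 33 with and without it and 33 to 34 leaving out a library, also without the control that had no transgene. Raw library totals moved no summed level by more than its SD. Motif shares over bases before the start were 22.6%, 9.68% and 3.23%, against 11.8%, 1.81% and 3.54% of all promoters. Dnah7a, Dnah7b and Dnah7c count separately among the 7 promoters behind the 22.6%. No called value changed direction. The trachea has 10 libraries of unequal depth, and few counts limit Dnah7a and Dnah14.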
